A study of Homo sapiens with 12 samples.

Results

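Axon guidance ligands and receptors were followed in U251 cells, an established human glioblastoma line, across a hairpin against the long noncoding RNA INCA1 and a treatment with interferon gamma (IFNγ). The genes were taken by symbol, as all rows of the expression table named for Eph receptors, ephrins, semaphorins, plexins, neuropilins, Robo receptors, Slits, UNC5 receptors and netrins, plus DCC. This gave 69 of 27685 genes: 14 Eph receptors, 8 ephrins, 20 semaphorins, 9 plexins, 2 neuropilins, 4 Robo receptors, 3 Slits, 5 netrin receptors and 4 netrins. The set was chosen with earlier results of these data known. Its shares beside those of all genes are therefore descriptive and not an independent test. The shCTRL line stably expressed a control short hairpin RNA and the shINCA1 line a hairpin that targets INCA1. Each line was sampled untreated and after 24 h of IFNγ, giving 4 groups of 3 samples. All cells therefore carried a hairpin, and the labels give passages 14-18 for all. The labels name no further clone or hairpin for either line, so the effect of the hairpin and other differences between the lines cannot be told apart. Nor do they state whether replicate samples were grown apart, so the p-values below rest on a spread between samples that may be only technical.

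Guidance molecules steer growing axons and migrating cells by attraction or repulsion. Ephrins are membrane-bound ligands of the Eph receptor tyrosine kinases, semaphorins signal through plexins, with neuropilins as co-receptors for the secreted SEMA3 semaphorins, Slits bind Robo receptors, and netrins bind DCC and the UNC5 receptors. The same molecules act in tumour cell migration, invasion and vessel growth, and EPHA2 and EPHA3 are well known Eph receptors of glioblastoma. IFNγ is a cytokine that signals through JAK kinases.

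Library totals ran from 46525032 to 66242859 estimated counts, and 15769 genes with 99.986% of the counts were tested. Values are given as CPM, the count per 1000000 of the library's TMM-scaled total, and changes are fitted log2 changes ± SE. A gene was called at an adjusted p under 0.05 in edgeR's quasi-likelihood test, with Benjamini-Hochberg adjustment over the 15769 genes of a comparison. The defining glial markers GFAP and S100B lay at 2.95 CPM or less in every library, while VIM and CD44, also glioma markers, were high, and the glioma and astroglial list summed to 3454 to 3681 CPM in shCTRL and 2989 to 3046 CPM in shINCA1 libraries. The 6 neuronal markers summed to 194 to 223 CPM in shCTRL and 247 to 277 CPM in shINCA1 libraries, nearly all of it TUBB3 (133 and 221 CPM in untreated shCTRL and shINCA1 cells) and MAP2 (78.5 and 43.2 CPM), while STMN2 was at 0 in every library and RBFOX3 at 0.0828 CPM or less. The 5 endothelial markers summed to 0.611 to 1.08 CPM in shCTRL and 0.815 to 2.79 CPM in shINCA1 libraries. The immune list summed to 12.3 to 14.5 CPM in shCTRL and 9.83 to 11.5 CPM in shINCA1 libraries. Nearly all of it was CD68 (12.6 and 9.46 CPM in untreated shCTRL and shINCA1 cells), and 4 of its 7 markers were at 0 in each group. The epithelial list summed to 90.7 to 96.8 CPM in shCTRL and 241 to 271 CPM in shINCA1 libraries, nearly all of it KRT18, with EPCAM and CDH1 at 0.20 CPM or less. The part of these lists in the differences between the lines was not tested. In bulk samples, fewer cells expressing a gene and less RNA per cell cannot be told apart. The level of the targeted RNA was not analysed here, because the symbol INCA1 belongs to a protein-coding gene on chromosome 17 in the annotation used.

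Of the 69 genes, 60 passed the filter on low counts and were tested. The other 9 held at most 12 counts in any library: the Eph receptors EPHA1, EPHA8 and EPHA10, the semaphorins SEMA4A, SEMA4G and SEMA5B, the Slit receptor ROBO2, and the netrins NTN3 and NTN5. SEMA5B was at 0 in all 12 libraries. The filter keeps a gene that is high in only 1 group, so the tested members are not all members.

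The levels per length ranked the members within each family, as mean CPM per kilobase of the canonical transcript ± SD over 3 libraries. Among Eph receptors, EPHA2 was highest, at 43.2 ± 5.6 per kilobase in untreated shCTRL and 97.5 ± 15 in untreated shINCA1 cells. EPHB4, a receptor of ephrin-B2, followed at 19.8 ± 0.76 and 27.9 ± 1.5, and EPHA3 at 14.3 ± 0.18 and 7.96 ± 0.59. EPHA2 therefore stood above the other 13 Eph receptors in both lines by more than the spread of its libraries.

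Among ephrins, the transmembrane ephrin-B2 gene EFNB2 stood at 24.1 ± 0.38 per kilobase in untreated shCTRL and 23.4 ± 0.35 in untreated shINCA1 cells. The membrane-anchored ephrin-A1 gene EFNA1 stood at 19.5 ± 1.2 and 28.5 ± 1.1. EFNB2 was thus the higher of these in shCTRL and EFNA1 in shINCA1 cells. EFNA2 was near the floor of detection in all groups, at 0.0911 per kilobase or less.

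Among semaphorins, the secreted SEMA3C led in untreated shCTRL cells at 42 ± 9.4 per kilobase but stood at 13.9 ± 0.33 in untreated shINCA1 cells. There the transmembrane SEMA6B led, at 24 ± 2.5, against 24.6 ± 0.73 in shCTRL. The leading semaphorin thus differed between the lines. Among plexins PLXNB2, a receptor of SEMA4 semaphorins, led in both lines, at 24.3 ± 1.6 and 31.1 ± 2.1 per kilobase. SLIT2 led the Slits (3.77 ± 0.081 and 3.49 ± 0.043), UNC5C the netrin receptors (6.5 ± 0.11 and 8.1 ± 0.25) and NTN4 the netrins (6.7 ± 0.21 and 8.55 ± 0.32). Among Robo receptors ROBO1 led in shCTRL cells (5.38 ± 0.066) and ROBO3 in shINCA1 cells (1.13 ± 0.074). NRP2 exceeded NRP1 in both untreated groups, at 26.3 ± 0.95 against 12.5 ± 2.6 in shCTRL and 14.2 ± 0.58 against 9.87 ± 1.8 in shINCA1 cells. With IFNγ the neuropilins were level in shCTRL cells (27 ± 0.51 and 27.6 ± 0.6).

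The comparison of shINCA1 with shCTRL cells asked how the hairpin lines differed. ROBO1, EPHA7 and SEMA3D were present in shCTRL and at or near 0 in shINCA1 cells, whereas EPHA6 was at 0 in shCTRL and present in shINCA1 cells. The netrin receptor DCC was low but present in shCTRL and higher in shINCA1 cells. Without IFNγ, 39 of the 60 tested members were called (65%), 20 higher and 19 lower in shINCA1, while 56.9% of all genes tested were called (27.4% higher, 29.5% lower). With IFNγ, 43 were called (71.7%), 24 higher and 19 lower, against 58.9% of all genes (28.7% higher, 30.2% lower). Most of the genes tested thus differed between the lines, and the members' shares lay near that background. Differences of at least 2-fold were called for 15 of the 60 members without IFNγ, against 12.5% of all genes, and for 16 with IFNγ, against 13.1%. The median absolute log2 difference was 0.52 over the members and 0.32 over all genes without IFNγ, and 0.65 and 0.33 with IFNγ. Members at 0 in 1 line lay beyond these medians both at their fitted value and at their lower bound. Setting them to the bound therefore could not move the medians of the members. The signed medians of the members lay near 0, at -0.02 without and 0.12 with IFNγ. The libraries of the lines did not overlap for 43 of the members without IFNγ (62.8% of all genes) and for 45 with IFNγ (66.5%). These comparisons used separate libraries of the same lines, and 18 members were called higher in both, 17 lower in both and 0 in opposite directions by edgeR. The same overlap was not counted over all genes, so it cannot be read as a trait of the members. The members named below are chiefly those with the largest changes among genes at 1 CPM or more in a group.

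**Figure D1:**
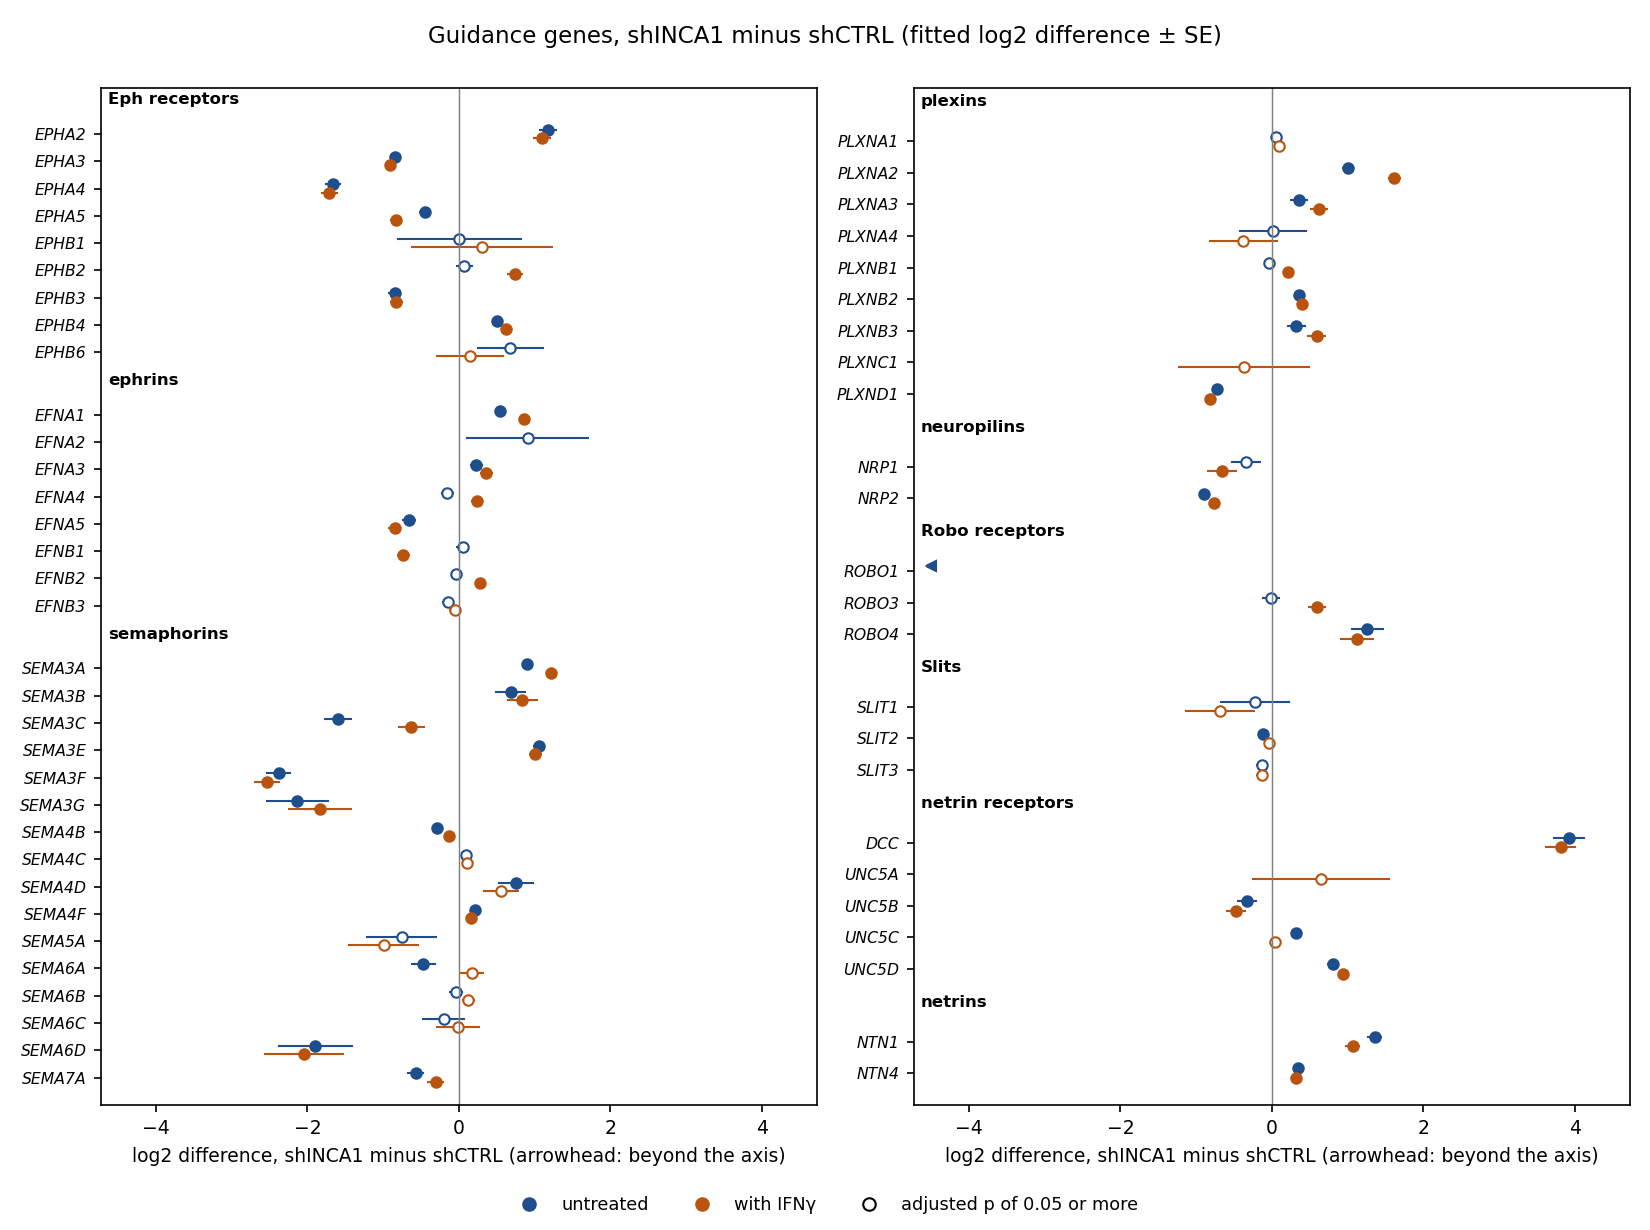
Fitted log2 difference between shINCA1 and shCTRL cells (x axis, ± SE) for the tested guidance genes by family, without IFNγ (blue) and with IFNγ (orange), with open circles for an adjusted p of 0.05 or more. Genes with under 10 pooled counts in a group are not drawn for that comparison, among them EPHA6, EPHA7 and SEMA3D, and the arrowhead marks ROBO1 at -8.55 without IFNγ. DCC stands apart on the right at 3.92 and 3.81.

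Among Robo receptors, ROBO1, which mediates repulsion by Slits, stood at 36.8, 37.3 and 37.7 CPM in the untreated shCTRL libraries and at 0.0522, 0.15 and 0.089 CPM in the untreated shINCA1 libraries. With IFNγ it stood at 35, 39.5 and 35.5 CPM in shCTRL and at 0, 0.0612 and 0.0556 CPM in shINCA1. All 6 shCTRL libraries were far above all 6 shINCA1 libraries. The fitted log2 difference without IFNγ was -8.55 ± 0.21 (adjusted p = 3.35e-11), and with IFNγ the level was 985-fold lower in shINCA1 (95% exact interval 452 to 2686, from pooled counts). ROBO1 lies on chromosome 3, where the 20 tested genes on each side of it had a median log2 difference of -0.56 without and -0.60 with IFNγ. ROBO4, the Robo receptor of endothelial cells, was low and was higher in shINCA1, at 3.58 ± 0.28 against 1.49 ± 0.54 CPM untreated (SD, n = 3), a log2 difference of 1.26 ± 0.21 (adjusted p = 0.000238), and 1.13 ± 0.21 with IFNγ (adjusted p = 0.000557). The endothelial markers summed to 0.863 to 1.08 CPM in untreated shCTRL and 2.42 to 2.79 CPM in untreated shINCA1 libraries, with VWF at 0.918 and 1.74 CPM, CDH5 at 0.0331 and 0.768 CPM and CLDN5 at 0 throughout, and their part in the ROBO4 difference was not tested. ROBO3, known from axons that cross the midline, was level without IFNγ (-0.01, adjusted p = 0.952) and higher in shINCA1 with it (0.60 ± 0.11, adjusted p = 0.000481). The Slits moved little: SLIT2 was called lower without IFNγ at -0.11 ± 0.04 (adjusted p = 0.0242) and not with it, and SLIT1 and SLIT3 were not called in either comparison. The SLIT2 call was lost with upper-quartile factors, without a filter, with the filter at 5 CPM, with DESeq2, with only the groups compared, and with counts divided by 3. It was also lost without the first untreated shCTRL library (0.0569), the second untreated shINCA1 library (0.0830) or the third treated shINCA1 library (0.0547), and with its neighbours' median subtracted the SLIT2 difference was -0.01.

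Among netrin receptors, DCC, the receptor of netrin attraction, stood at 0.613, 0.382 and 0.558 CPM in untreated shCTRL and at 7.78, 8.35 and 7.8 CPM in untreated shINCA1 libraries. With IFNγ the values were 0.353, 0.596 and 0.714 CPM in shCTRL and 7.98, 7.46 and 8.37 CPM in shINCA1. DCC was thus low in every shCTRL library and over 10 times as high in every shINCA1 library, with log2 differences of 3.92 ± 0.19 (adjusted p = 7.83e-09) and 3.81 ± 0.19 (adjusted p = 8.58e-09). The annotation places LINC01917 on the opposite strand of DCC. UNC5D, a receptor of netrin repulsion, was higher in shINCA1 by 0.80 ± 0.06 without IFNγ (adjusted p = 3.94e-07) and by 0.95 ± 0.06 with it (adjusted p = 1.13e-07). UNC5B was lower by a smaller amount, with a log2 difference of -0.32 ± 0.12 (adjusted p = 0.0308) and -0.47 ± 0.12 (adjusted p = 0.00486), the first of which was lost with DESeq2 and without the first or the third untreated shCTRL or the second or the third untreated shINCA1 library (adjusted p of at most 0.103). UNC5C was higher in shINCA1 without IFNγ (0.32 ± 0.04, adjusted p = 1.9e-05) and was not called with it (0.04, adjusted p = 0.384). UNC5A lay near the floor, with a ratio of 6.17 without IFNγ (95% exact interval 2.61 to 17.8, higher in shINCA1, adjusted p = 0.0537 by edgeR and 0.0305 by DESeq2).

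Both netrins that passed the filter, NTN1 and NTN4, were higher in shINCA1 cells, and NTN3 and NTN5 were not tested. The secreted ligand NTN1 stood at 9.21, 7.11 and 9.01 CPM in untreated shCTRL and at 22.1, 21.3 and 21.6 CPM in untreated shINCA1 libraries. Without IFNγ the log2 difference was 1.36 ± 0.09 (adjusted p = 8.7e-08) and with IFNγ it was 1.07 ± 0.09 (adjusted p = 5.32e-07), and the libraries of the lines did not overlap in either case. NTN4, a netrin related to laminin beta chains, was higher by 0.35 ± 0.05 and 0.32 ± 0.05 (adjusted p = 7.37e-05 and 0.000154).

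**Figure D2:**
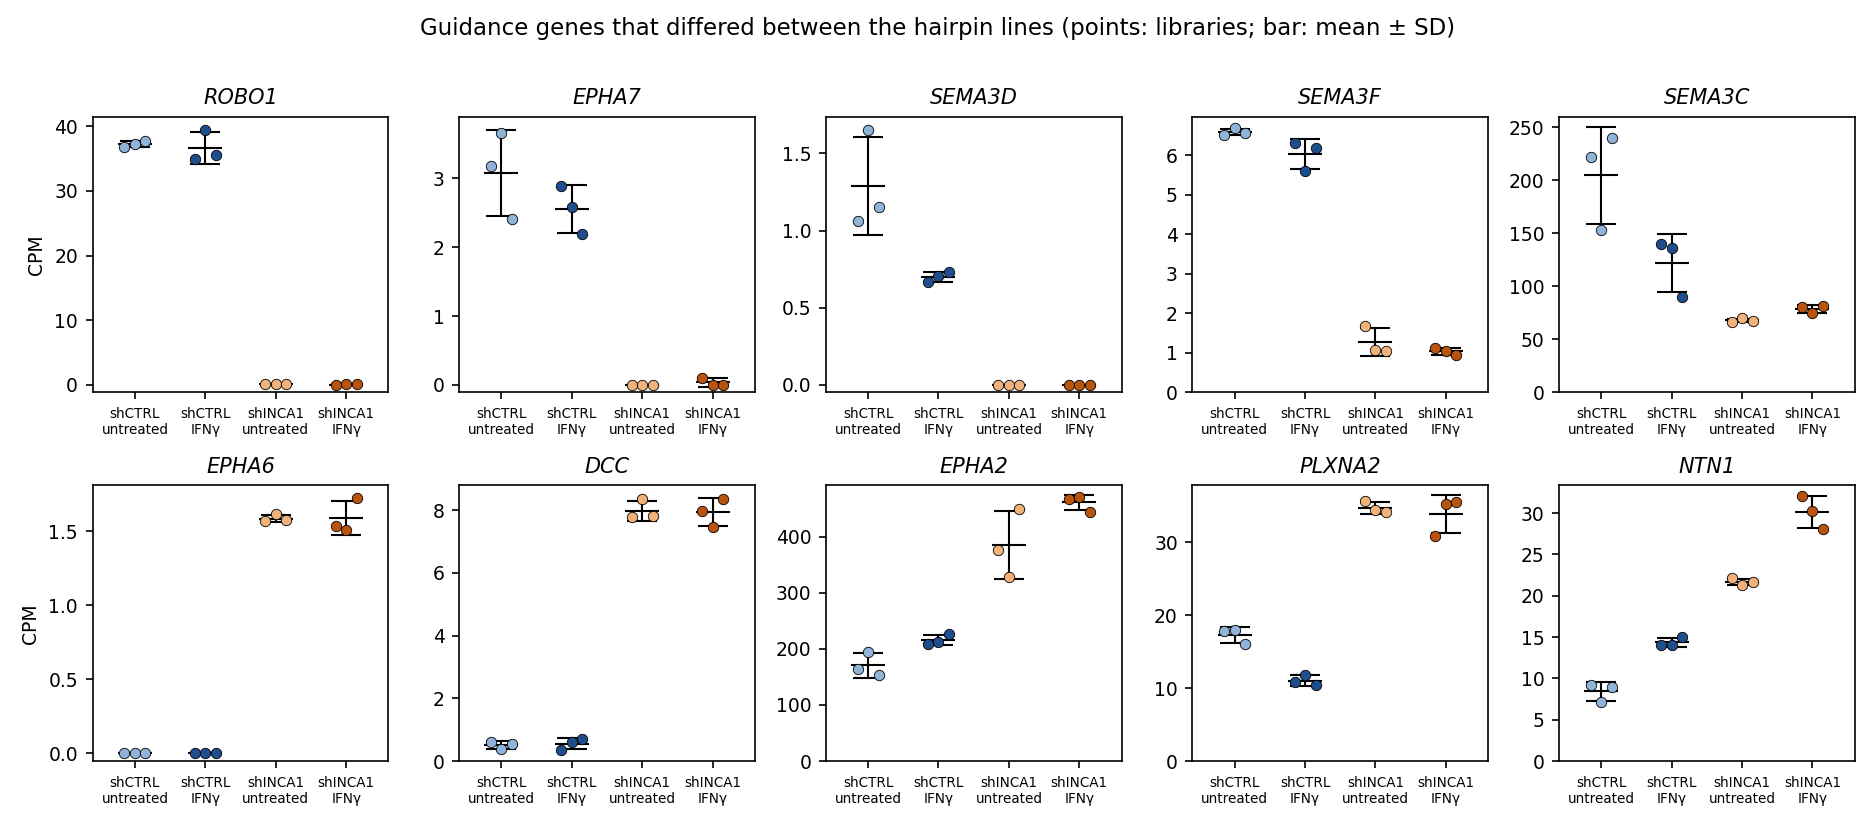
CPM in each library (points) with the mean and SD (bars) for 10 guidance genes in the 4 groups, each panel with its own linear axis. ROBO1, EPHA7 and SEMA3D are at or near 0 in the shINCA1 libraries, EPHA6 is at 0 in the shCTRL libraries, and EPHA2, PLXNA2 and NTN1 are higher in shINCA1 with and without IFNγ.

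Among Eph receptors, 8 of the 11 tested were called without IFNγ, 3 higher and 5 lower in shINCA1, and 9 were called with IFNγ. The shares of all genes called were 56.9% and 58.9%. EPHA7 was at 3.18, 3.65 and 2.41 CPM in untreated shCTRL libraries and at 0 in the 3 untreated shINCA1 libraries. With IFNγ it was at 2.88, 2.59 and 2.19 CPM in shCTRL and at 0.105, 0 and 0 CPM in shINCA1 libraries. All shCTRL libraries were above all shINCA1 libraries. Without IFNγ it was therefore at least 62.8-fold lower, computed against a floor of 3 counts per library, and with IFNγ it was 67.7-fold lower (95% exact interval 30.9 to 186). EPHA7 lies on chromosome 6, and its neighbours had a median log2 difference of -0.58 without and -0.71 with IFNγ. EPHA6 showed the opposite pattern, with 0 counts in all 6 shCTRL libraries and 1.57, 1.61 and 1.57 CPM in untreated and 1.53, 1.51 and 1.72 CPM in treated shINCA1 libraries. That is at least 28.7-fold higher without and at least 30.4-fold higher with IFNγ. The annotation places ENSG00000261292 on the same strand over part of EPHA6 and ENSG00000287683 on the opposite strand over part of EPHA7. What these add to the counts was not tested.

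EPHA2, the most abundant Eph receptor, stood at 164, 195 and 153 CPM in untreated shCTRL and 376, 328 and 449 CPM in untreated shINCA1 libraries. The groups did not overlap, and the log2 differences were 1.17 ± 0.11 (adjusted p = 1.51e-06) and 1.10 ± 0.11 with IFNγ (adjusted p = 2.53e-06). EPHB4 was also higher, by 0.50 ± 0.05 and 0.63 ± 0.05 (adjusted p = 3.61e-06 and 4.78e-07); the annotation places SLC12A9 on the opposite strand over part of it, and without the strand setting of the counting their reads cannot be told apart. Most other Eph receptors with a difference were lower in shINCA1. EPHA4, which binds ephrins of both classes, was at 11.5, 12.5 and 13.1 CPM in untreated shCTRL and 3.66, 3.79 and 4.29 CPM in untreated shINCA1 libraries, with log2 differences of -1.66 ± 0.09 and -1.71 ± 0.10 (adjusted p = 2.13e-08 and 2.08e-08). EPHA3 differed by -0.85 ± 0.06 and -0.91 ± 0.06 (adjusted p = 9.03e-08 and 4.68e-08), and EPHB3, an ephrin-B receptor, by -0.85 ± 0.07 and -0.83 ± 0.08 (adjusted p = 9.86e-07 and 1.57e-06). EPHA5 differed by -0.45 without and -0.84 with IFNγ (adjusted p = 4.4e-05 and 2e-07). The neighbours of EPHA5 had medians of 0.23 and 0.20, so that with them subtracted the differences were -0.67 and -1.03. EPHB1 and EPHB6, a receptor without kinase activity, were under 1.1 CPM in every library and were not called.

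Of the 8 ephrins, 3 were called without IFNγ and 7 with it, beside 56.9% and 58.9% of all genes. Without IFNγ these were EFNA1 higher (0.55 ± 0.05, adjusted p = 3.37e-06), EFNA3 higher (0.23 ± 0.07, adjusted p = 0.0184) and EFNA5 lower (-0.66 ± 0.08, adjusted p = 1.46e-05) in shINCA1. With IFNγ they included EFNA1 at 0.86 ± 0.05, EFNA5 at -0.85 ± 0.08 and the ephrin-B1 gene EFNB1 at -0.73 ± 0.07 (adjusted p = 6.67e-08, 1.64e-06 and 3.79e-06). EFNB1 and EFNB2 were thus called between the lines with IFNγ and not without it. EFNB2 was higher by 0.28 with IFNγ (adjusted p = 2.78e-06), or 0.07 with its neighbours' median subtracted, and the untreated EFNA5 difference was -0.43 when treated so. EFNA3 and EFNA4 overlap the readthrough gene EFNA4-EFNA3 on the same strand, so their counts are uncertain, and the untreated EFNA3 call was lost without the second or the third shCTRL or the first or the second shINCA1 library (adjusted p of at most 0.0708). EFNA2 with IFNγ rested on 6 pooled counts in shCTRL, with a ratio of 6.44 (95% exact interval 2.69 to 18.7, higher in shINCA1), and its call (adjusted p = 0.0278) was lost without the first or the third treated library of either line (at most 0.0862).

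Of the 17 semaphorins tested, 13 were called without IFNγ (5 higher, 8 lower), beside 56.9% of all genes. With IFNγ 11 were called (4 higher, 7 lower), beside 58.9% of all genes. At 2-fold or more 6 were called in each comparison, beside 12.5% and 13.1% of all genes. Most of those at 2-fold or more were secreted SEMA3 members. SEMA3D was at 1.06, 1.66 and 1.15 CPM in untreated and 0.664, 0.705 and 0.731 CPM in treated shCTRL libraries. It was at 0 in all 6 shINCA1 libraries, that is, at least 26.0-fold lower without and at least 12.5-fold lower with IFNγ. SEMA3F, which signals mainly through NRP2, stood at 6.51, 6.68 and 6.56 CPM in untreated shCTRL and 1.67, 1.08 and 1.05 CPM in untreated shINCA1 libraries. Its log2 differences were -2.38 ± 0.16 and -2.53 ± 0.16 (adjusted p = 9.16e-08 and 6.5e-08), beside neighbours at -0.32 and -0.30 on chromosome 3. SEMA3F-AS1 lies on its opposite strand. SEMA3C was at 222, 153 and 239.9 CPM in untreated shCTRL and 66.8, 69.8 and 67.2 CPM in untreated shINCA1 libraries, a difference of -1.59 ± 0.17 (adjusted p = 7.49e-06) that measured -0.63 ± 0.17 with IFNγ (adjusted p = 0.00716).

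SEMA3A and SEMA3E went the other way. SEMA3A, the ligand of NRP1 and A-class plexins, stood at 61.2, 59.3 and 65.9 CPM in untreated shCTRL and 112, 122 and 113 CPM in untreated shINCA1 libraries, with log2 differences of 0.90 ± 0.05 and 1.21 ± 0.05 (adjusted p = 1.49e-08 and 1.22e-09). SEMA3E, which binds PLXND1 directly, was at 5.93 and 12.4 CPM, with differences of 1.06 ± 0.07 and 1.01 ± 0.07 (adjusted p = 9.54e-08 and 1.36e-07). On chromosome 7, which holds SEMA3A, SEMA3C, SEMA3D and SEMA3E, the neighbours of these genes had medians between -0.09 and 0.08, while the genes themselves differed in opposite directions. Among less abundant members, SEMA3G (-2.13 and -1.84) and the transmembrane SEMA6D (-1.89 and -2.04) were lower in shINCA1 in both comparisons, and SEMA3B, which has SEMA3B-AS1 on its opposite strand, was higher (0.68 and 0.84). SEMA7A, a membrane-anchored ligand of PLXNC1, differed by -0.57 ± 0.10 and -0.31 ± 0.10 (adjusted p = 0.000306 and 0.0165), or -0.90 and -0.66 with its neighbours' medians subtracted. SEMA4D, the ligand of PLXNB1, was higher without IFNγ (0.76 ± 0.22, adjusted p = 0.012), and with IFNγ its adjusted p was 0.0524.

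Among the receptors of semaphorins, the neuropilin NRP2 stood at 182, 171 and 171 CPM in untreated shCTRL and 94.7, 97.6 and 90.0 CPM in untreated shINCA1 libraries. It was lower in shINCA1 in both comparisons (-0.90 ± 0.04 and -0.76 ± 0.04, adjusted p = 1.7e-09 and 6.43e-09), and NRP1 was lower with IFNγ (-0.66 ± 0.18, adjusted p = 0.00863) but was not called without it (-0.35, adjusted p = 0.132). PLXNA2, a plexin that works with neuropilins, was at 17.8, 18 and 16.1 CPM in untreated shCTRL and 35.6, 34.4 and 34.1 CPM in untreated shINCA1 libraries. The PLXNA2 difference was 1.01 ± 0.07 without and 1.62 ± 0.07 with IFNγ (adjusted p = 1.38e-07 and 2.84e-09), with no overlap of libraries. PLXND1 differed by -0.73 ± 0.05 and -0.81 ± 0.05 (adjusted p = 7.55e-08 and 2.69e-08), opposite in direction to its ligand SEMA3E. PLXNB2 was higher by 0.35 ± 0.05 and 0.40 ± 0.05 (adjusted p = 0.000122 and 4.05e-05), the latter 0.24 with its neighbours' median subtracted. Of the 9 plexins, 5 were called without IFNγ (4 higher, 1 lower) and 6 with IFNγ (5 higher, 1 lower), beside 56.9% and 58.9% of all genes. PLXNA3 and PLXNB3 overlap LAGE3 and SRPK3 in the annotation, and their untreated calls (0.36 and 0.32) were lost without the third shCTRL or the first shINCA1 library, that of PLXNB3 also without the second shCTRL or the third shINCA1 library (adjusted p of at most 0.0644 and 0.0945).

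The response to IFNγ was measured within each line. In shCTRL cells 21 of the 60 tested members were called (35%), 6 raised and 15 lowered, against 17.2% of all genes tested (9.72% raised, 7.51% lowered). In shINCA1 cells 11 were called (18.3%), 5 raised and 6 lowered, against 9.08% of all genes (6.13% raised, 2.95% lowered). Because the set was chosen with earlier results of these data known, these shares are descriptive only. Among all genes more were raised than lowered in each line. Among the members the lowered genes were the larger group in shCTRL (15 against 6), while in shINCA1 cells the counts were nearly level (6 against 5). The median log2 change of the members was -0.10 in shCTRL and -0.07 in shINCA1 cells, against -0.01 and 0 over all genes, and the median absolute change was 0.27 and 0.17 against 0.12 and 0.09. The libraries of treated and untreated cells did not overlap for 34 members in shCTRL (33.4% of all genes) and for 19 in shINCA1 (24.9%). Changes were small, and at 2-fold or more edgeR called 1 member, NRP1, in shCTRL (2.73% of all genes) and 0 in shINCA1 cells (1.65%). In shCTRL cells 5 of 8 ephrins, 5 of 11 Eph receptors and 3 of 5 netrin receptors were called by edgeR, and 5, 6 and 2 of them by DESeq2. Of the 3 Slits 0 were called in either line by edgeR, by DESeq2 or by limma-voom, with 0 at an unadjusted p under 0.05.

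**Figure D3:**
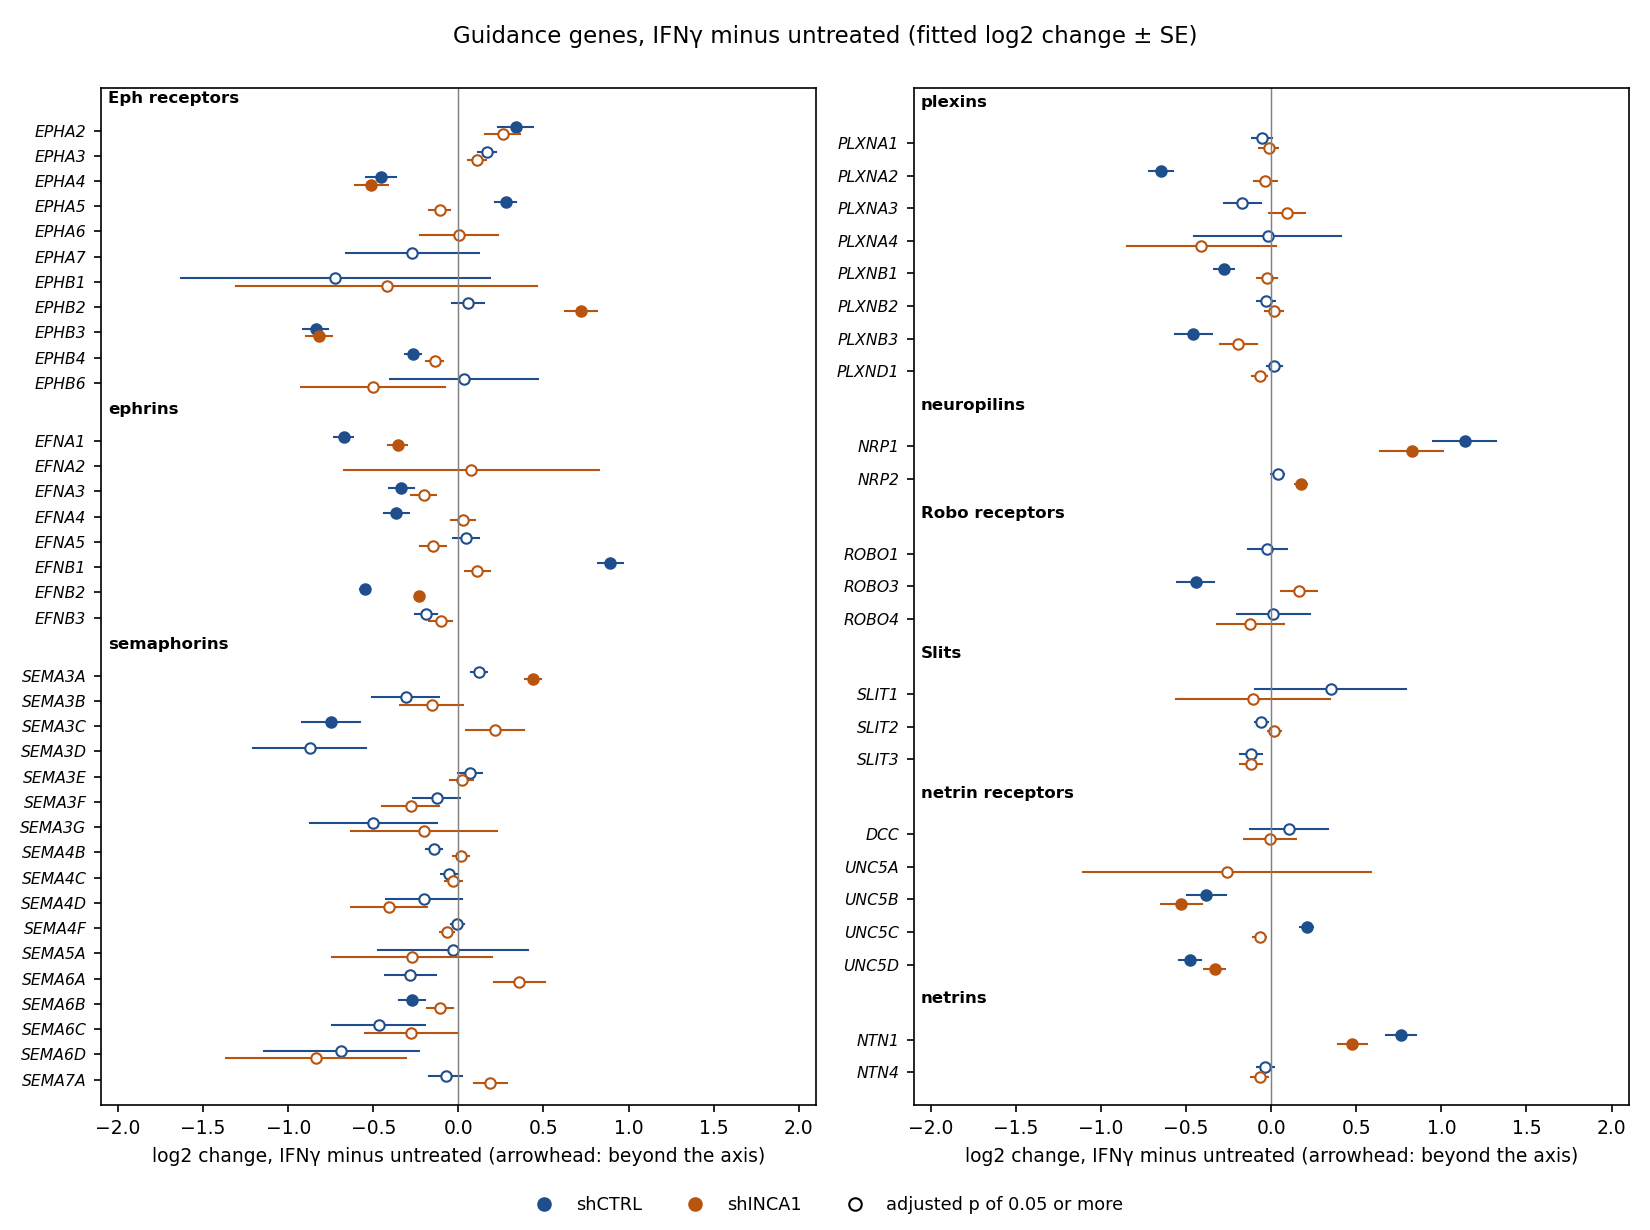
Fitted log2 change with IFNγ (x axis, ± SE) for the tested guidance genes by family in shCTRL (blue) and shINCA1 cells (orange), with open circles for an adjusted p of 0.05 or more and genes with under 10 pooled counts in a group not drawn for that comparison. NRP1 and NTN1 lie to the right of 0 in both lines, and EFNA1, EPHB3, EPHA4, UNC5B and UNC5D to the left.

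Raised in both lines were NRP1 and NTN1. NRP1, a co-receptor of SEMA3 semaphorins and of vascular endothelial growth factor, went from 87.8, 60.6 and 63.9 CPM to 156, 152 and 159 CPM in shCTRL libraries. In shINCA1 libraries it went from 61.9, 61.4 and 43.7 CPM to 88.4, 81.1 and 127 CPM. Treated and untreated libraries did not overlap in either line. NRP1 rose by 1.14 ± 0.19 on the log2 scale in shCTRL (adjusted p = 0.00102). Its rise in shINCA1 was 0.83 ± 0.19 (adjusted p = 0.0142). In shINCA1 cells the third treated library was the highest and the third untreated library the lowest. Without either, the change was 0.59 (adjusted p = 0.0602) or 0.68 (adjusted p = 0.0621). NTN1 went from 8.44 ± 1.2 to 14.4 ± 0.54 CPM in shCTRL and from 21.6 ± 0.41 to 30.1 ± 2 CPM in shINCA1 cells (SD, n = 3), changes of 0.76 ± 0.09 (adjusted p = 6.07e-05) and 0.48 ± 0.08 (adjusted p = 0.00301).

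Lowered in both lines were the ephrins EFNA1 and EFNB2, the Eph receptors EPHA4 and EPHB3 and the netrin receptors UNC5B and UNC5D. EPHB3 had the largest fall of the called members, from 23.6, 21.7 and 21.9 CPM to 13.6, 11.5 and 12.5 CPM in shCTRL and from 12.9, 12.5 and 11.9 CPM to 7.41, 7.18 and 6.57 CPM in shINCA1 libraries. The treated libraries lay below all untreated ones in each line, with changes of -0.84 ± 0.07 and -0.82 ± 0.08 (adjusted p = 4.67e-06 and 1.33e-05). EFNA1 went from 32.5, 29.2 and 29.2 CPM to 19.6, 18.6 and 18.8 CPM in shCTRL and from 42.6, 46 and 44.1 CPM to 36.3, 33.5 and 33.9 CPM in shINCA1 libraries, changes of -0.67 ± 0.05 and -0.36 ± 0.05 (adjusted p = 2.6e-06 and 0.000912). Its difference of responses was 0.32, short of the threshold by edgeR (adjusted p = 0.0713) and limma-voom (0.0704) and past it by DESeq2 (0.0320). EPHA4 changed by -0.46 ± 0.09 and -0.51 ± 0.10 in the lines (adjusted p = 0.00326 and 0.0048), the latter with an adjusted p of 0.0553 when only the groups compared were fitted. UNC5D changed by -0.48 ± 0.06 and -0.33 ± 0.06 (adjusted p = 0.000226 and 0.00402) and UNC5B by -0.38 ± 0.12 and -0.53 ± 0.12 (adjusted p = 0.0433 and 0.0148). The UNC5B call in shCTRL was lost without any 1 of the 6 shCTRL libraries or the third untreated shINCA1 library (at most 0.126), and in shINCA1 cells it was lost without the third treated shINCA1 library (0.0527). In shCTRL it was also lost with DESeq2 (0.0877).

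**Figure D4:**
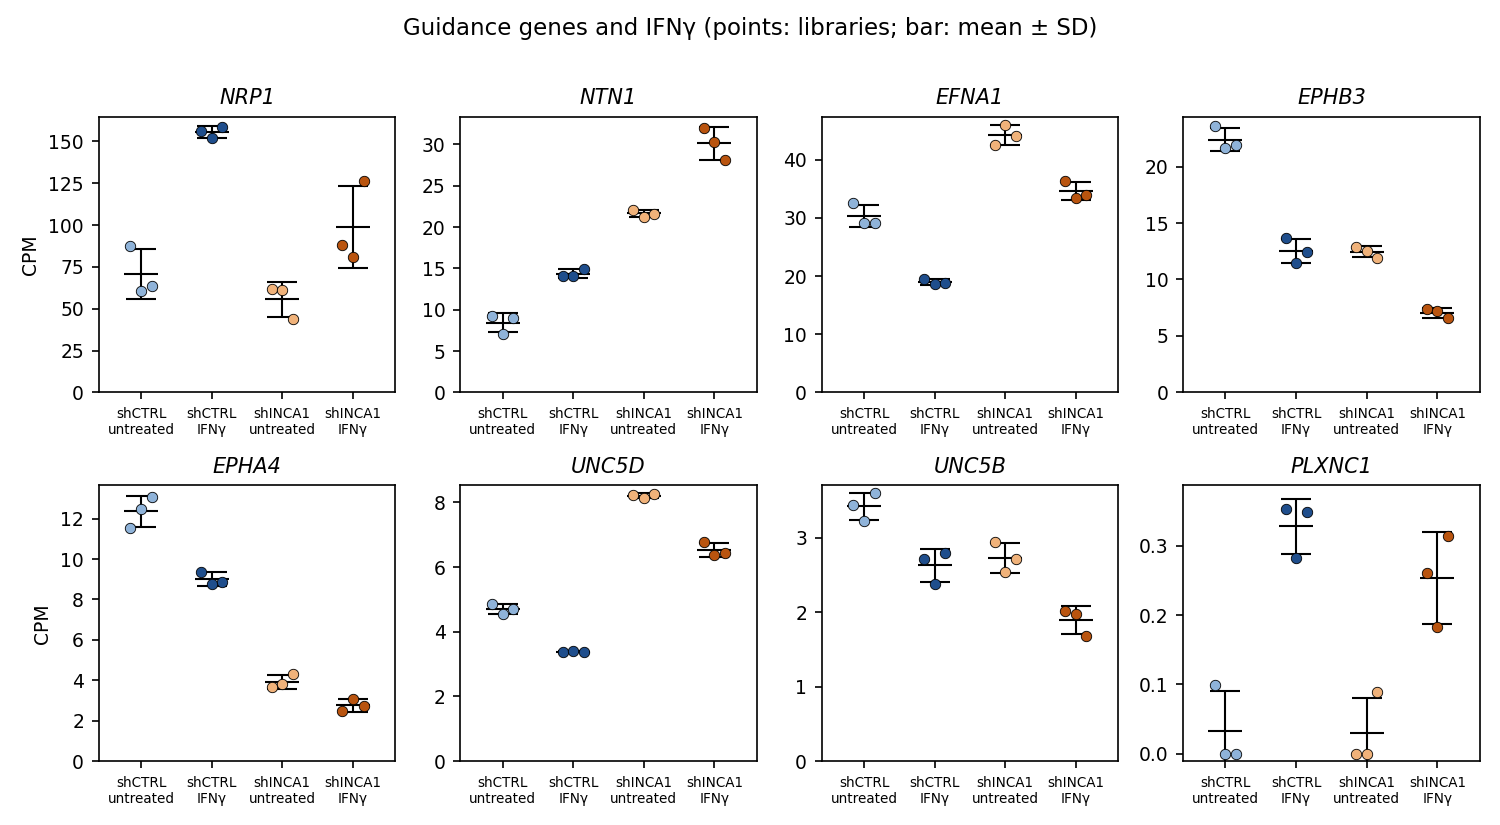
CPM in each library (points) with the mean and SD (bars) for 8 guidance genes in the 4 groups, each panel with its own linear axis. NRP1 and NTN1 are higher and EFNA1, EPHB3, EPHA4, UNC5D and UNC5B lower with IFNγ in both lines, and PLXNC1 stays under 0.4 CPM throughout.

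A further 13 members were called in shCTRL and not in shINCA1 cells. SEMA3C went from 222, 153 and 239.9 CPM to 139.7, 136 and 90.1 CPM in shCTRL libraries (-0.75 ± 0.17, adjusted p = 0.00885), with the third treated library the lowest, and was at 67.9 ± 1.6 and 78.9 ± 3.6 CPM in shINCA1 cells (SD, n = 3). Its difference of responses, 0.97 ± 0.24, had an adjusted p of 0.0803 by edgeR and 0.113 by limma-voom, and was called by DESeq2 (0.0176). The other lowered members were PLXNA2 (-0.65), PLXNB3 (-0.46), ROBO3 (-0.45), EFNA4 (-0.36), EFNA3 (-0.33), PLXNB1 (-0.28), SEMA6B (-0.27) and EPHB4 (-0.27), of which PLXNA2 also differed in response between the lines. The raised ones were EFNB1 (0.89), EPHA2 (0.34), EPHA5 (0.28) and UNC5C (0.21). Of these 13 members, edgeR called the difference of responses for EFNB1, EPHA5, PLXNA2 and UNC5C only. A call in 1 line alone is thus not a difference between the lines. In shINCA1 cells EPHA2 changed by 0.26 (difference adjusted p = 0.927), EFNA3 by -0.20 (0.730) and EPHB4 by -0.14 (0.549), and DESeq2 called EPHB4 there (adjusted p = 0.0181). The EPHA2 call (adjusted p = 0.047) was lost without each of 9 libraries, all but the second untreated shCTRL and the second and the third untreated shINCA1 libraries (at most 0.163), with upper-quartile factors and with limma-voom. The SEMA6B call was lost without the first treated or the first or the third untreated shCTRL library (at most 0.0749) and that of PLXNB3 without the third treated shCTRL library (0.0517). Called in shINCA1 and not in shCTRL cells were EPHB2 (0.72 ± 0.09, adjusted p = 0.000282), SEMA3A (0.44 ± 0.05, adjusted p = 5.79e-05) and NRP2 (0.17 ± 0.04, adjusted p = 0.00947), the last of which was lost without the third untreated shINCA1 library (0.0572). The difference of responses of NRP2 was not called (0.14, adjusted p = 0.299). No member was called in opposite directions in the lines, and 36 were called in neither.

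PLXNC1, the receptor of SEMA7A, was near the floor of detection. It held 6 pooled counts in each untreated group, and the ratio with IFNγ was 8.84 in shCTRL (95% exact interval 3.82 to 25.1) and 7.88 in shINCA1 (3.33 to 22.7). All treated libraries lay above all untreated ones in each line, but PLXNC1 was not called by edgeR (adjusted p = 0.0679 and 0.138). It was called by limma-voom in both lines (adjusted p = 0.0152 and 0.0356) and by DESeq2 in shCTRL (adjusted p = 0.0239) but not in shINCA1 cells (0.0619). Its locus overlaps CEP83 on the opposite strand.

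The difference of the IFNγ responses, that of shINCA1 minus that of shCTRL cells, was called for 7 of the 60 members (11.7%), 4 upward and 3 downward, against 1.71% of all genes tested (0.615% upward, 1.1% downward). The genes were EFNB1, EFNB2, EPHB2, EPHA5, PLXNA2, SEMA3A and UNC5C, and so included 3 ephrin or Eph genes of the B class. The median absolute difference was 0.20 over the members and 0.10 over all genes. Here too the set was chosen with earlier results of these data known, so the share is descriptive only.

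**Figure D5:**
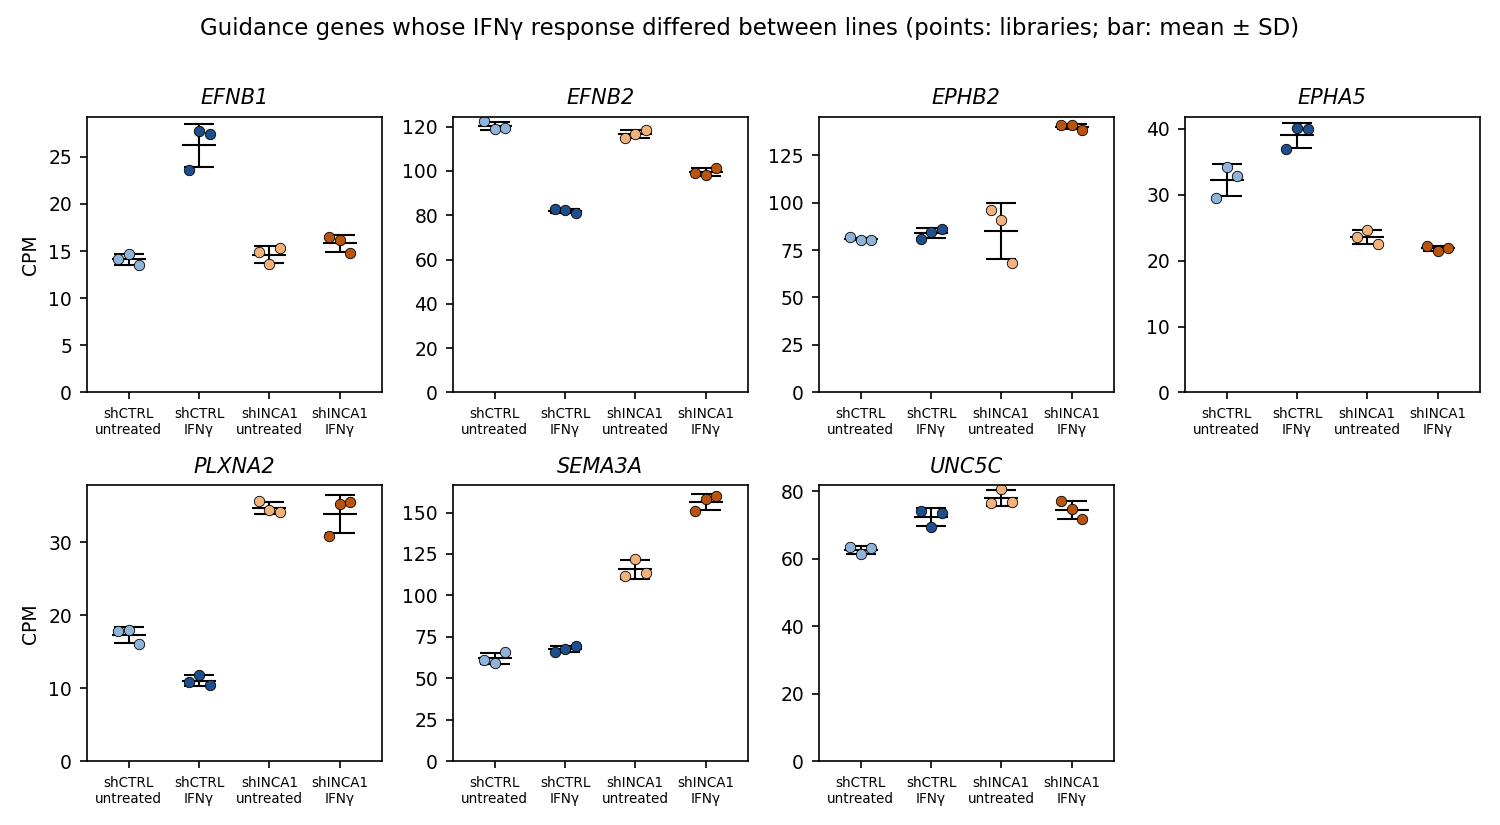
CPM in each library (points) with the mean and SD (bars) for the 7 guidance genes whose IFNγ response was called as different between the lines. With IFNγ, EFNB1 is higher and PLXNA2 lower in the shCTRL libraries, EPHB2 and SEMA3A are higher in the shINCA1 libraries, and EFNB2 is lower in both lines, by 0.55 in shCTRL and 0.23 in shINCA1 on the log2 scale.

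EFNB1, which encodes the transmembrane ligand ephrin-B1, went from 14.2, 14.6 and 13.5 CPM to 23.6, 27.7 and 27.4 CPM in shCTRL libraries. In shINCA1 libraries it stood at 14.9, 13.6 and 15.3 CPM without and 16.4, 16.1 and 14.8 CPM with IFNγ. The treated shCTRL libraries were above all other 9 libraries. The changes were 0.89 ± 0.07 (adjusted p = 3.01e-06) and 0.11 ± 0.07 (adjusted p = 0.484), and the difference of -0.78 ± 0.10 was past the threshold (adjusted p = 0.00228). EFNB2 went from 122, 119 and 119 CPM to 82.9, 82.2 and 81.2 CPM in shCTRL and from 115, 117 and 118 CPM to 99, 97.9 and 101 CPM in shINCA1 libraries. Both lines thus showed a fall, of -0.55 ± 0.03 and -0.23 ± 0.03, and the fall was smaller in shINCA1 by 0.32 ± 0.04 (adjusted p = 0.00108). EFNB1 and EFNB2 therefore changed in opposite directions in shCTRL cells, and EFNB3 was not called in any comparison.

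EPHB2, a receptor of B-class ephrins, was at 81.7, 80.5 and 80.2 CPM without and 81.1, 84.7 and 86 CPM with IFNγ in shCTRL libraries. In shINCA1 libraries it was at 96.1, 90.8 and 68.2 CPM without and 141, 141 and 138 CPM with IFNγ. The third untreated shINCA1 library was the lowest of all 12, and the difference of responses was 0.66 ± 0.13 (adjusted p = 0.0267). EPHA5 stood at 32.2 ± 2.4 and 39 ± 1.9 CPM without and with IFNγ in shCTRL and at 23.6 ± 1.1 and 21.9 ± 0.38 CPM in shINCA1 cells (SD, n = 3), a difference of -0.39 ± 0.08 (adjusted p = 0.0442). EPHA5-AS1 lies on the opposite strand of it.

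PLXNA2 went from 17.8, 18 and 16.1 CPM to 10.9, 11.8 and 10.4 CPM with IFNγ in shCTRL libraries and from 35.6, 34.4 and 34.1 CPM to 30.8, 35.2 and 35.5 CPM in shINCA1 libraries. It fell in shCTRL cells (-0.65 ± 0.07, adjusted p = 3.7e-05) and was not called in shINCA1 cells (-0.04, adjusted p = 0.862), and the difference was 0.61 ± 0.10 (adjusted p = 0.00763). SEMA3A, a ligand that signals through plexins of this class, rose in shINCA1 cells from 116 ± 5.7 to 157 ± 4.7 CPM, against 62.1 ± 3.4 and 67.7 ± 1.9 CPM in shCTRL (SD, n = 3), a difference of 0.31 ± 0.07 (adjusted p = 0.0392). UNC5C changed by 0.21 in shCTRL and -0.07 in shINCA1 cells, a difference of -0.28 ± 0.05 (adjusted p = 0.025), and UNC5C-AS1 lies on its opposite strand. The differences of EFNB1, EFNB2 and PLXNA2 were called whichever of the 12 libraries was left out. Those of EPHA5, EPHB2, SEMA3A and UNC5C were lost without each of 10, 9, 10 and 8 libraries, with adjusted p-values of at most 0.128, 0.0670, 0.140 and 0.0956. With DESeq2 size factors the adjusted p of SEMA3A was 0.0603, and with upper-quartile factors that of EPHA5 was 0.0519.

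By edgeR, 12 of the 60 tested members were called in no comparison: EFNB3, EPHB1, EPHB6, PLXNA1, PLXNA4, PLXNC1, SEMA4C, SEMA5A, SEMA6C, SLIT1, SLIT3 and UNC5A. Of these, limma-voom called PLXNC1 with IFNγ in both lines and UNC5A between the untreated lines (adjusted p = 0.0344), and DESeq2 called PLXNC1 with IFNγ in shCTRL cells and UNC5A between the untreated lines (adjusted p = 0.0305). The 12 included well expressed genes, such as PLXNA1 at 86.5 ± 3.9 CPM and SEMA4C at 31.4 ± 0.89 CPM in untreated shCTRL cells (SD, n = 3).

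Promoter sequences from RefSeq (GRCh38.p14) were found for 59 of the 69 members, with 91 start sites, in a table of 27305 genes and 35116 starts. Among the members without a sequence, and so not searched, were NRP1 and NTN1, raised by IFNγ in both lines, and UNC5B and UNC5D, lowered in both. SEMA3A and SEMA6B, each called with IFNγ in 1 line, were not searched either. The 250 bases before each start were searched on both strands for the gamma-activated site TTCNNNGAA, which reads the same on both strands, and for the core of the interferon-stimulated response element, GAAANNGAAA. The gamma-activated site was in 5 of the 91 member windows (5.49%) and in 6.57% of all windows. The response element core was in 1 member window (1.1%) and in 3.02% of all. Member windows were richer in G and C (median 65.2% against 58%) and in CG steps (median 17 against 11). A match is a description of the letters and not a site of binding. The genes with a gamma-activated site were EFNA3, EPHA3, EPHA5, ROBO2 and SEMA3E, of which EFNA3 and EPHA5 were called with IFNγ in shCTRL cells, in opposite directions. The gene with the response element core was EPHA4, which was lowered by IFNγ in both lines.

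The promoters of 5 of the members called with IFNγ follow, 5′ to 3′ on the strand of the gene, with motif matches in capitals. They are those of the ephrin genes EFNB1 and EFNB2, whose responses differed between the lines, and of EPHA5 and EPHA4, which hold a motif. The last is that of EPHB3, which had the largest fall of the called members. Of genes with several starts, the window shown is the one with a match or else the first. EFNB1 (chrX:68828771-68829020, plus strand), EFNB2 (chr13:106535663-106535912, minus strand) and EPHB3 (chr3:184561535-184561784, plus strand) held no match. EPHA5 (chr4:65670490-65670739, minus strand) held a gamma-activated site at -143 and EPHA4 (chr2:221574203-221574452, minus strand) a response element core at -79, counted from the start to the first base of the match.
EFNB1: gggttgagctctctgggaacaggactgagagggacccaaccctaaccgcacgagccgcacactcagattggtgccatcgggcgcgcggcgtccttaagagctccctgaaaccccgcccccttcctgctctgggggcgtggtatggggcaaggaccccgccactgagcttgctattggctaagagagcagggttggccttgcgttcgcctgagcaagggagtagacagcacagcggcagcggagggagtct
EFNB2: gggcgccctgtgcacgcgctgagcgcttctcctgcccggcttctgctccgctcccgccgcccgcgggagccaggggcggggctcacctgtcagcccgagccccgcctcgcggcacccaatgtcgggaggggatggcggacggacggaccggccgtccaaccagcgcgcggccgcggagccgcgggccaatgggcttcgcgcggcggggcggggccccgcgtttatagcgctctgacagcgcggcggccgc
EPHB3: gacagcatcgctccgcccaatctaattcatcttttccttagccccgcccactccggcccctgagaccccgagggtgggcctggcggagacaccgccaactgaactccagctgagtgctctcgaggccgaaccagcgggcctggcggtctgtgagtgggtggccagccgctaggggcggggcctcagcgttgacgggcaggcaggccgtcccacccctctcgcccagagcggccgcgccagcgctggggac
EPHA5: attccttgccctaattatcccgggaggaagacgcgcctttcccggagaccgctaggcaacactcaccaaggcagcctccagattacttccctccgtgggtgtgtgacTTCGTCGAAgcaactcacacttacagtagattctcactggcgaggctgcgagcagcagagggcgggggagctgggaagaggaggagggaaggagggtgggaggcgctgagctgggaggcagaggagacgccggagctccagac
EPHA4: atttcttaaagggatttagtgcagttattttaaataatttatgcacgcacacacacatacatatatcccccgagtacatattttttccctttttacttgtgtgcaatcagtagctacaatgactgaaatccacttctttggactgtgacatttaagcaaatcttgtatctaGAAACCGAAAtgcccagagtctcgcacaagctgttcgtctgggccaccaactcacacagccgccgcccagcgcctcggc

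Genes that act downstream of the receptors were read from a list of 51 intracellular effectors, all tested. With IFNγ 5 were raised and 9 lowered in shCTRL (27.5%, against 17.2% of all genes), and 3 and 4 in shINCA1 cells (13.7%, against 9.08%), with median absolute changes of 0.14 and 0.09 beside 0.12 and 0.09 over all genes. MYO10, a myosin of filopodia that carries netrin receptors, was lowered in both lines, from 218 ± 2.4 to 151 ± 3.4 CPM in shCTRL and from 111 ± 4.2 to 94.2 ± 2 CPM in shINCA1 cells (SD, n = 3). It was the 1 effector whose difference of responses was called (0.29 ± 0.05, adjusted p = 0.00724). That is 1.96% of the effectors, near the 1.71% of all genes. VAV3, which acts downstream of Eph receptors, was lowered (-0.61 and -0.27), as was MICAL3 (-0.29 and -0.19), and the kinase PAK3 was raised (0.95 and 0.58). Between the lines, 14 effectors were higher and 22 lower in shINCA1 without IFNγ, and 11 and 23 with IFNγ. The Slit-Robo GTPase-activating protein SRGAP1 (1.63 ± 0.08) and the semaphorin mediator CRMP1 (1.71 ± 0.09) were higher, and MYO10 (-0.97 ± 0.03) and RHOA (-0.52 ± 0.02) lower without IFNγ (adjusted p = 8.91e-09, 9.11e-09, 3.33e-10 and 2.2e-09). The same directions were called with IFNγ, at 1.69, 1.61, -0.68 and -0.51.

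A list of 31 other guidance ligands, receptors and co-receptors had 24 tested genes. Both it and the list of effectors were chosen with earlier results of these data known, so their shares are descriptive only. With IFNγ 2 were raised and 5 lowered in shCTRL (29.2%, against 17.2% of all genes), and 3 and 3 in shINCA1 cells (25%, against 9.08%). The receptor tyrosine kinase MET, a partner of B-class plexins, rose in both lines, by 0.49 ± 0.03 and 0.27 ± 0.03 (adjusted p = 4.52e-07 and 0.000158), and FLRT3, a ligand of UNC5 receptors, fell, by -1.61 ± 0.11 and -1.05 ± 0.10 (adjusted p = 5.05e-07 and 2.33e-05). FLRT2, its relative, also fell in both lines (-0.74 ± 0.07 and -0.23 ± 0.07, adjusted p = 6.25e-06 and 0.0473). CXCR4, the receptor of CXCL12, went from 2.8 ± 0.24 to 0.512 ± 0.092 CPM in shCTRL cells (SD, n = 3; -2.45 ± 0.28, adjusted p = 5.41e-05). In shINCA1 cells it was at 0.415 ± 0.06 and 0.211 ± 0.1 CPM and was not called (adjusted p = 0.089). The receptor KDR was raised in both lines (0.48 ± 0.08 and 0.94 ± 0.08), and the adhesion molecule NRCAM was raised in shINCA1 cells (0.60 ± 0.13, adjusted p = 0.00974). The difference of responses was called for FLRT2 (0.51 ± 0.09, adjusted p = 0.0179) and MET (-0.22 ± 0.05, adjusted p = 0.0347), 8.33% of the 24 genes beside 1.71% of all genes. Between the lines, 9 were higher and 7 lower in shINCA1 without IFNγ, and 13 and 7 with IFNγ. L1CAM, an adhesion molecule that associates with NRP1, was higher (2.45 ± 0.08 and 2.41 ± 0.08), as was MET (1.12 ± 0.03 and 0.90 ± 0.03), while the netrin relative NTNG1 (-2.84 ± 0.14 and -3.46 ± 0.15) and NRCAM (-2.01 ± 0.12 and -1.70 ± 0.12) were lower, in each case with an adjusted p of at most 1.7e-07. The shares called in both lists between the lines ran from 66.7% to 83.3%, beside 56.9% and 58.9% of all genes.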

How the data were processed

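Libraries of 12 U251 samples were made with a TruSeq stranded mRNA kit, per the labels' protocols. The deposited table holds estimated counts per gene, as whole numbers (expected counts), not scaled between samples. FastQC, Trimmomatic, HISAT2, StringTie and build hg19 are named, per the submitters' processing notes. Not given in the sources used here are their versions, the annotation, and how and with which strand counts were made. Small counts cluster at multiples of 3 (5790 times at 3, 1317 at 4), so intervals and the floor of 3 counts per library cover counting error only and may be too narrow.

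The model used edgeR 4.0.16 (R 4.3.3, limma 3.58.1) with filterByExpr, TMM factors, glmQLFit and glmQLFTest on all 12 samples in 1 fit with 1 coefficient per group, two-sided, Benjamini-Hochberg over 15769 genes, threshold 0.05. SE is the log2 change over the square root of F. The common biological coefficient of variation was 10.6%. The script was tested on simulated data. CPM use TMM-scaled totals. Where a group held 0 counts a fold is a lower bound, and where it held 1 to 9 a ratio with a 95% exact interval of pooled counts. Lengths and overlaps are from GENCODE, a GRCh38 annotation, matched by symbol. Chromosomes and the order of neighbours are from RefSeq genes, matched by symbol or else by synonym.

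Members and lists were chosen with earlier results of these data known. Named members were up to 8 raised and 8 lowered with the largest change at 1 CPM or more, genes at 0 in 1 group and the most abundant of each family; list genes were up to 4 by p. Further members were named after their values were seen. Same-numbered samples did not deviate together (correlations -0.0358 to 0.0671, 0 of 18 above 0.1). Alternatives were other size factors, filters of none and 5 CPM in 3 samples, DESeq2 1.42.0, limma-voom, a replicate block, each library left out in turn, fits of the compared groups alone, a threshold of 0.01, glmTreat at a minimum fold of 2, division of counts by 3 and, chosen after seeing the data, the median of 20 neighbours on each side subtracted.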

Additional observations from a re-analysis of the deposited data

Results flagged for a closer look

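The IFNγ response differed between shINCA1 and shCTRL cells, by the test of the difference itself in edgeR, for 7 guidance genes. The log2 response of shINCA1 minus that of shCTRL cells was -0.78 for EFNB1, -0.39 for EPHA5 and -0.28 for UNC5C. It was 0.32 for EFNB2, 0.61 for PLXNA2, 0.66 for EPHB2 and 0.31 for SEMA3A. The calls of EFNB1, EFNB2 and PLXNA2 held without each of the 12 libraries in turn, and those of the other 4 were lost without most of them.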

How the results depend on the processing

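No call of a named member changed direction under any alternative run. The number of members called lower in shINCA1 without IFNγ was 12 with the filter at 5 CPM, where fewer genes are tested, against 19. For the difference of responses 1 member was called downward with the replicate block, against 3, and 2 upward and 1 downward at an adjusted p of 0.01; the block lost 6 of 121 calls (EPHA2, SEMA6B and UNC5B with IFNγ in shCTRL, EFNA2 between the treated lines, EPHA5 and UNC5C in the difference), the cause was not tested, and the replicate numbers do not pair the samples. With a minimum fold of 2 (glmTreat) 0 members were called for IFNγ in either line, raised or lowered, and 0 for the difference of responses, with 1, 2 and 1 at an unadjusted p under 0.05; DESeq2 called 23, 12 and 9 members and limma-voom 23, 12 and 7 without a minimum fold. Between the lines glmTreat called 3 higher and 7 lower without IFNγ and 4 and 5 with IFNγ. Leaving out each library gave 5 to 7 raised and 13 to 16 lowered for IFNγ in shCTRL, 4 to 5 and 5 to 6 in shINCA1, 17 to 21 higher and 17 to 19 lower between the untreated lines, 23 to 25 and 18 to 20 with IFNγ, and 2 to 4 upward and 1 to 2 downward for the difference. Subtracting the neighbours' median moved 40 of 82 differences between the lines by over 1 SE. The floor of detection was 0.0487 to 0.0561 CPM, so genes below it could not be compared.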
